A study of Mus musculus with 6 samples.

Results

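Cxcl1, Cxcl2, Cxcl3 and Cxcl5 are the 4 mouse CXC chemokines considered here, taken from the 32285 genes of the deposited tables by their symbols. They are ligands of the receptor Cxcr2. Their UMIs (unique molecular identifiers, 1 per captured RNA molecule) were summed per library and per cell class. The study profiled mouse lung cells by 10x Genomics single-cell RNA sequencing, 4 h after an intraperitoneal injection. Its groups were NOS1-/- (KO) mice given lipopolysaccharide (LPS, 10 mg/kg; 2 libraries), WT mice given the same LPS (2 libraries), KO mice given vehicle (1 library) and WT mice given vehicle (1 library). The series text writes the WT strain as C65BL6, and ages are not given in the sources used here. All groups shared digestion of whole lungs with Liberase TB and DNase I, red cell lysis and magnetic selection of CD45+ cells, so non-haematopoietic cells are those that the selection carried along. The labels do not say how many animals went into a library, nor which part of Nos1 is deleted.

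These chemokines are small secreted proteins that draw neutrophils into tissue. They bind Cxcr2, a G protein-coupled receptor that neutrophils carry in large number, and resident cells and arriving neutrophils can both make them. Bacterial LPS, sensed through Tlr4 with Cd14 and Ly96, activates NF-kB, which drives their transcription within hours. Their mRNAs are short-lived, because AU-rich elements in the 3′ untranslated region are bound by decay factors such as Zfp36, and Zc3h12a (Regnase-1) cuts further inflammatory mRNAs. In the lung, Cxcl1 and Cxcl2 are classically assigned to macrophages, endothelium and stroma and Cxcl5 (also called LIX) to alveolar epithelium.

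All 4 genes lie on the plus strand of chromosome 5 (GENCODE M21, GRCm38), each with 4 exons, within 0.1466 Mb. In order, they are Cxcl5 (ENSMUSG00000029371; chr5:90759360-90761624), Cxcl3 (ENSMUSG00000029379; chr5:90786103-90789600), Cxcl1 (ENSMUSG00000029380; chr5:90891241-90893115) and Cxcl2 (ENSMUSG00000058427; chr5:90903871-90905938). Between Cxcl5 and Cxcl1 lie the related platelet chemokine genes Ppbp and Pf4 and the lung epithelial chemokine gene Cxcl15. Nos1 lies on the same chromosome, 26.88 Mb beyond the end of Cxcl2. Of the 2159 stretches of 50 bases in Cxcl2 transcripts, 108 (5%) occur in Cxcl3 transcripts too, while none of those of Cxcl1 occurs in another gene, so few reads can be shared between the members.

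RefSeq promoter sequences (GRCm38.p6) matched 3 of the 4 members, and the 120 bases before each start are printed because they hold the letters that the 3 promoters have in common. Capitals mark the longest run of letters found in all 3 windows of 250 bases, and the TATA box letters TATAAA where present.
Cxcl3 (chr5:90785981-90786100, plus strand): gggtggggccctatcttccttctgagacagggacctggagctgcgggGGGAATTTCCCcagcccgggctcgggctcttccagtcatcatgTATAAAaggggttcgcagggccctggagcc
Cxcl1 (chr5:90891125-90891244, plus strand): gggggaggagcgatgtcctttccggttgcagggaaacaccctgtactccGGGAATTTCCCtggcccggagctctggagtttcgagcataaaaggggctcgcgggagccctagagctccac
Cxcl2 (chr5:90903779-90903898, plus strand): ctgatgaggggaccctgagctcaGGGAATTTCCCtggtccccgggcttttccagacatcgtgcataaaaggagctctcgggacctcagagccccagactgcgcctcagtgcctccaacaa
The shared run has 11 letters and begins 73 bases before the RefSeq start in Cxcl3, 71 in Cxcl1 and 97 in Cxcl2. The printed Cxcl2 bases end at 90903898 and those of Cxcl1 at 90891244, past the GENCODE starts at 90903871 and 90891241. Counted from the GENCODE starts, the distances for Cxcl2 and Cxcl1 would be shorter. It was found by comparing these promoters and occurs, on either strand, in 14 of 32851 promoters (0.0426%). It holds overlapping matches to the kB consensus of NF-kB sites on both strands, and that consensus occurs in 7.25% of promoters searched on both strands over the same 250 bases. TATAAA occurs in 12.4% of them and, of these members, in Cxcl3 at 30 to 25 bases before the start. These are matches of letters, and binding was not measured.

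The 3′ untranslated regions carry the AU-rich pentamer ATTTA that decay factors are known to bind. The 30 bases of each richest in it (GENCODE M21, longest annotated region, plus strand) are printed because mRNA decay is 1 of the gene lists described further on, with each ATTTA in capitals.
Cxcl1: gagggtcctATTTATTTAtgtATTTATTTA
Cxcl2: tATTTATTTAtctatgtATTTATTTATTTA
Cxcl3: caagatggcatcttATTTAatgtttATTTA
Cxcl5: agcttcctgctcatctcacaagtgtATTTA
Cxcl1 had 7 pentamers in 592 bases, a density reached by 0.581% of the 20988 genes with such a region. Cxcl2 had 11 in 1494 bases (2.41% of genes as dense), Cxcl3 5 in 645 bases (2.07%) and Cxcl5 5 in 1111 bases (8.63%). The median over all genes was 1 pentamer.

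The 6 libraries held 55361477 to 115225284 UMIs each, and 51903 cells fell into 15 classes named from marker genes. In all, 11 classes could be tested, each with at least 30 cells in every library, while epithelial cells, platelets, innate lymphoid cells and plasmacytoid dendritic cells give values only. Although the label gives CD45+ haematopoietic cells, 2339 of these cells were endothelial, 869 stromal and 254 epithelial by their markers. Pairs of libraries shared 20 to 35 cell barcodes. Nos1 had 0 to 4 UMIs in every library, which checks no label. The libraries differed in sex marks: Xist, which is transcribed in female cells, had 4 UMIs in the WT vehicle library, which held transcripts of the Y-linked genes Ddx3y, Eif2s3y, Kdm5d and Uty. The KO vehicle library and both WT LPS libraries held Xist and at most 3 UMIs of any of these Y-linked genes. Both KO LPS libraries held cells of either kind, with Xist alone in 31.3% and 32.3% of cells and Y-linked transcripts alone in 21.9% and 19.7%. Of their Y-only alveolar macrophages 83.8% and 87.0% lay in the cluster that held most vehicle cells of that class. A KO LPS value is thus an average over both kinds of cell. Sex, animal and genotype cannot be told apart in these libraries, and whether both kinds came from animals with the same LPS exposure was not tested. Interstitial macrophages were cluster 26 alone, with a median doublet score of 0.128. Its marker score was 5.00, and that of B cells came next at 2.62. Of its KO LPS cells 21.9% and 17.6% held both Xist and Y-linked transcripts. In dendritic cells these shares were 11.9% and 10.2%, and in alveolar macrophages 4.16% and 4.71%. The members' levels and KO against WT values are given by mark as well, the folds over vehicle, the shares of cells and the pathway genes for all cells. In these data p-values measure only the spread between libraries, which may be technical.

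Levels are given as CPM, the UMIs of a gene per 1000000 UMIs of the class in that library. Under LPS the members were carried by different cells. Cxcl2 was highest in neutrophils and Cxcl3 in alveolar macrophages and neutrophils. Cxcl1 was highest in stromal cells, interstitial macrophages, epithelial cells and endothelial cells. Cxcl5 was highest in epithelial cells in WT LPS. In KO LPS the Cxcl5 values of epithelial cells and platelets overlapped, with means of 87.05 and 108.1 CPM. The plot of levels by class shows all libraries.

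**Figure D1:**
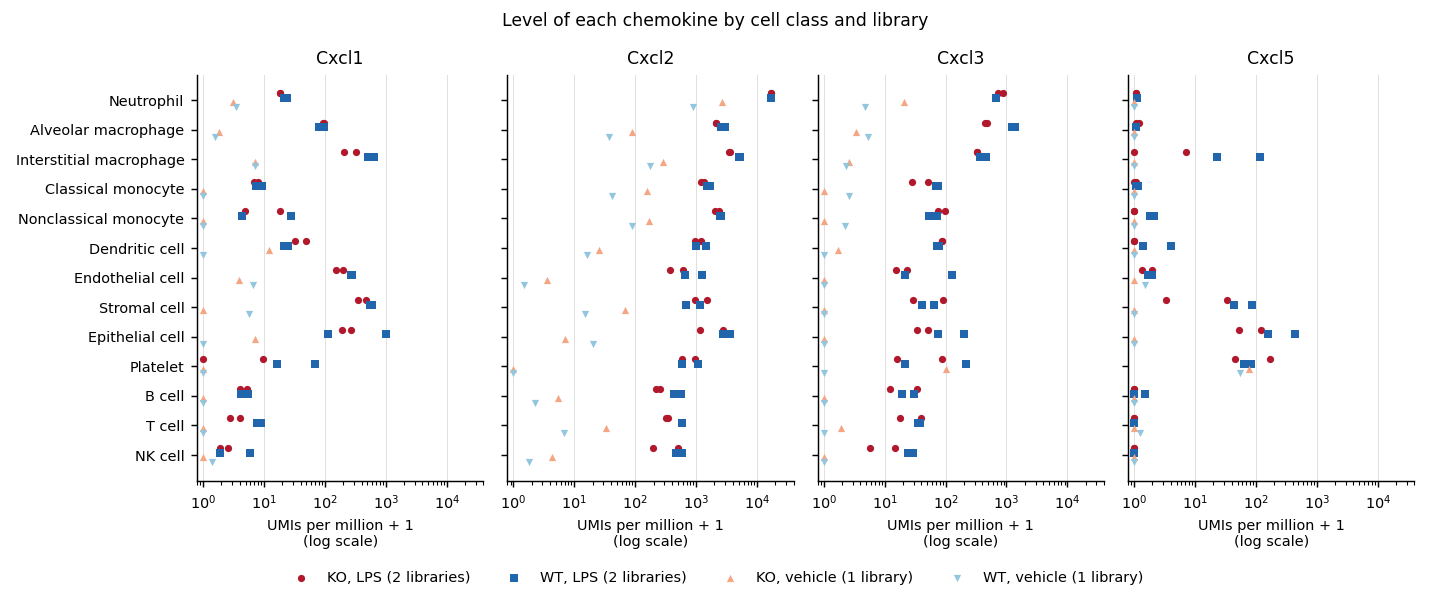
Level of each member in each cell class, as CPM plus 1 (log axis), with 1 symbol per library and the KO LPS, WT LPS, KO vehicle and WT vehicle groups in different colours. Cxcl2 lies between 16899 and 17227 in the neutrophils of the 4 LPS libraries, and Cxcl1 is led by stromal cells, interstitial macrophages, epithelial cells and endothelial cells.

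Cxcl1, the chemokine also called KC, stood in stromal cells at 479 and 344 CPM in KO LPS libraries, 591 and 557 CPM in WT LPS libraries, 0 CPM in the KO vehicle library and 4.69 CPM in the WT vehicle library. In interstitial macrophages it had 205 and 320 CPM in KO LPS, 501 and 651 CPM in WT LPS, 6.01 CPM in KO vehicle and 6.26 CPM in WT vehicle. Endothelial cells had 197 and 152 CPM in KO LPS, 273 and 275 CPM in WT LPS, 2.94 CPM in KO vehicle and 5.63 CPM in WT vehicle. In all 3 classes every LPS library was above every vehicle library and both KO LPS libraries were below both WT LPS libraries. Alveolar macrophages had less Cxcl1 per UMI, with 96.1 and 93.1 CPM in KO LPS, 94.7 and 78.2 CPM in WT LPS, 0.801 CPM in KO vehicle and 0.560 CPM in WT vehicle. The WT and KO values of this class overlapped under LPS. In the order of mean levels under LPS, stromal cells, interstitial macrophages, epithelial cells and endothelial cells could not be separated from their neighbours in both genotypes. Endothelial cells stood apart from alveolar macrophages, and these from dendritic cells. Neutrophils had only 17.7 and 17.2 CPM in KO LPS and 22.9 and 20.4 CPM in WT LPS, against 2.07 CPM in KO vehicle and 2.51 CPM in WT vehicle.

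Cell numbers changed which class contributed most Cxcl1 molecules. Of the Cxcl1 UMIs of a library, alveolar macrophages held 33.1% and 33.4% in KO LPS and 27.2% and 21.0% in WT LPS. Stromal cells held 22.8% and 16.1% in KO LPS and 10.1% and 13.4% in WT LPS, and endothelial cells held 20.7% and 16.1% in KO LPS and 15.8% and 18.2% in WT LPS. Interstitial macrophages, a small class of 74 to 131 cells under LPS, held 6.82% and 11.7% in KO LPS and 17.9% and 28.0% in WT LPS. The number of UMIs behind these shares was 4793 and 2666 in KO LPS and 5464 and 4232 in WT LPS, against 55 in KO vehicle and 38 in WT vehicle.

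**Figure D2:**
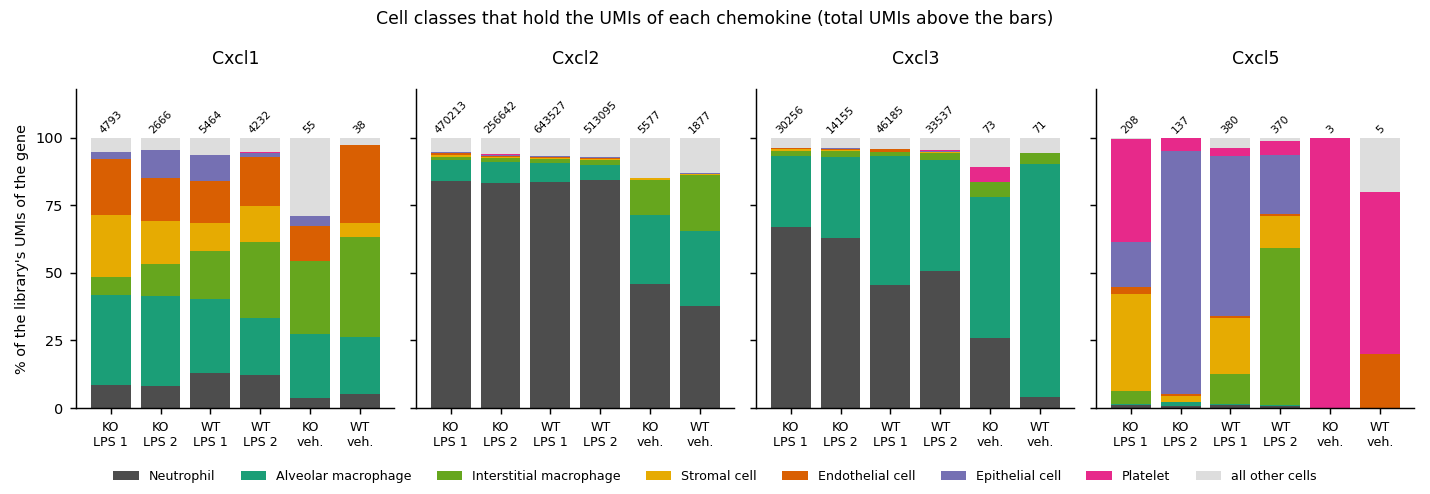
Share of each library's UMIs of a member that each cell class held, in percent, with the total UMIs of the member above each bar and 1 bar per library. Neutrophils (dark grey) hold 83.2% to 84.4% of Cxcl2 in the 4 LPS libraries, while Cxcl1 is divided among alveolar macrophages, stromal, endothelial and other cells.

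Cxcl2 was highest in neutrophils under LPS. It stood at 17019 and 17212 CPM in KO LPS neutrophils and 17227 and 16899 CPM in WT LPS neutrophils, against 2640 CPM in KO vehicle and 891 CPM in WT vehicle neutrophils. An average neutrophil carried 103.2 and 77.1 Cxcl2 UMIs in KO LPS and 117.8 and 83.3 in WT LPS, against 5.86 in KO vehicle and 1.33 in WT vehicle. Neutrophils were 2769 to 5202 cells per LPS library, against 436 in KO vehicle and 535 in WT vehicle. They held 84.1% and 83.2% of the library's Cxcl2 UMIs in KO LPS and 83.6% and 84.4% in WT LPS, against 45.8% in KO vehicle and 37.8% in WT vehicle. Interstitial macrophages followed with 3528 and 3608 CPM in KO LPS, 5091 and 5230 CPM in WT LPS, 288 CPM in KO vehicle and 176 CPM in WT vehicle. What doublets or free RNA add to the values of this class was not tested. Alveolar macrophages had 2129 and 2111 CPM in KO LPS, 2945 and 2535 CPM in WT LPS, 88.4 CPM in KO vehicle and 36.3 CPM in WT vehicle. In both macrophage classes the KO LPS values were below the WT LPS values and did not overlap with them. By the order of mean levels under LPS, neutrophils stood apart from interstitial macrophages in both genotypes. Interstitial macrophages stood apart from epithelial cells, whose Cxcl2 overlapped with that of alveolar macrophages and nonclassical monocytes.

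B cells and T cells, which are not known as sources of Cxcl2, gave the background level of these libraries. B cells had 253 and 220 CPM in KO LPS, 556 and 437 CPM in WT LPS, 4.50 CPM in KO vehicle and 1.31 CPM in WT vehicle. T cells had 349 and 316 CPM in KO LPS and 593 and 575 CPM in WT LPS. In LPS libraries the Cxcl3 UMIs of B cells came to 13.1% and 5.11% of their Cxcl2 UMIs in KO and 5.27% and 4.26% in WT. In neutrophils that ratio was 5.11% and 4.18% in KO and 3.90% and 3.92% in WT, while alveolar macrophages had 22.9% and 21.0% in KO and 47.7% and 48.1% in WT. B cell Cxcl2 was unevenly spread, with a median of 0 or 1 UMI per cell under LPS and 70.1% to 80.9% of the UMIs in the top 10% of cells. Whether it came from free RNA, from cell pairs or from the cells themselves was not tested. Values of B, T and NK cells are set down as background, and endothelial cells (612 and 368 CPM in KO LPS, 1259 and 667 CPM in WT LPS) were less than 3-fold above B cells of the same library.

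Cxcl3, a close relative of Cxcl2, was shared between alveolar macrophages and neutrophils. It stood at 486 and 443 CPM in KO LPS alveolar macrophages and 1406 and 1218 CPM in WT LPS alveolar macrophages, against 2.34 CPM in KO vehicle and 4.27 CPM in WT vehicle. In neutrophils it had 869 and 719 CPM in KO LPS and 672 and 663 CPM in WT LPS, against 19.6 CPM in KO vehicle and 3.77 CPM in WT vehicle. The KO LPS libraries were thus the low ones in alveolar macrophages and the high ones in neutrophils, without overlap in either class. Alveolar macrophages held 26.5% and 29.9% of the library's Cxcl3 UMIs in KO LPS and 47.8% and 41.2% in WT LPS, and neutrophils 66.8% and 63.1% in KO LPS and 45.4% and 50.7% in WT LPS. Interstitial macrophages had 332 and 324 CPM in KO LPS and 360 and 468 CPM in WT LPS, apart from the epithelial cells that came next. Monocytes, dendritic, stromal and endothelial cells lay between 14.6 and 98.2 CPM under LPS, except for 125.8 CPM in endothelial cells of WT LPS library 1.

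Cxcl5 was counted in few cells. Whole libraries held 208 and 137 Cxcl5 UMIs in KO LPS and 380 and 370 in WT LPS, against 3 in KO vehicle and 5 in WT vehicle. Epithelial cells (32 to 65 cells per LPS library) had 35 and 123 UMIs in KO LPS and 225 and 81 in WT LPS, and none in either vehicle library. These are 52.5 and 121.6 CPM in KO LPS and 437.8 and 159.5 CPM in WT LPS, so all KO values were below all WT values, in a class too small for the test. Of the 225 UMIs in WT LPS library 1, 102 came from 1 cell, as did 64 of the 123 in KO LPS library 2. Platelets, which store CXC chemokines, had 79 and 7 UMIs in KO LPS and 12 and 20 in WT LPS, and 3 in each vehicle library. Their vehicle levels (76.4 CPM in KO and 53.6 CPM in WT) lay within the range under LPS (172 and 44.0 CPM in KO, 62.7 and 83.5 CPM in WT). Stromal cells had 75 and 3 UMIs in KO LPS and 78 and 44 in WT LPS. Of the 215 UMIs in interstitial macrophages of WT LPS library 2, 211 came from 1 cell. Under LPS, Cxcl5 averaged 0.0833 CPM in KO and 0.123 CPM in WT neutrophils, and 0.135 CPM in KO and 0.0759 CPM in WT alveolar macrophages.

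Cxcl1, Cxcl2 and Cxcl3 were higher under LPS in the classes where they could be tested. Of 44 pairs of a member and a class, 34 passed the low-count filter and all 34 were higher in LPS than in vehicle libraries (edgeR quasi-likelihood test, Benjamini-Hochberg adjusted p under 0.05 over all genes of the class). Over all genes and the 11 classes, 29% of 117437 tests were called higher and 26.2% lower. Many pairs passed the filter through their LPS side alone, 10 having no vehicle UMI and 4 having 1 to 3, so the count of 34 carries no support of its own. Both tested Cxcl5 pairs are among those with no vehicle UMI. With 1 vehicle library per genotype, the fit assumes that these vary like the LPS libraries. The values below rest on the 20 pairs with more vehicle UMIs or are given as bounds. Folds are ratios of pooled plain CPM with exact 95% intervals, which cover counting error only. The fitted log2 changes ± SE use TMM scaling, which removes the shift of the bulk of genes. Plain class totals lowered the all-gene median by 1.55 in neutrophils, by 0.15 in alveolar macrophages and by 0.18 to 0.66 in the other classes on the log2 scale. With them, 15.3% in place of 59.1% of the calls in neutrophils were rises, and 32.2% in place of 50.4% in alveolar macrophages.

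In neutrophils, Cxcl2 was 9.23-fold higher under LPS (8.92 to 9.55), and the fitted change was 5.03 ± 0.06 (adjusted p = 2.05e-23, edgeR) against 3.48 with plain totals. Cxcl3 was 58.1-fold higher there (38.4 to 92.8; fitted 7.95 ± 0.15, plain 6.40), and Cxcl1 8.87-fold (3.46 to 32.6; fitted 4.64 ± 0.31, plain 3.09), resting on 4 vehicle UMIs. Vehicle neutrophils lay mostly in cluster 22, LPS neutrophils in clusters 0, 3, 4, 6, 12, 21 and 41. Of the alveolar macrophages, cluster 2 held 1357 of 1527 in KO vehicle and 1687 of 1862 in WT vehicle. Cluster 7 held 533 of 1201 and 455 of 914 in KO LPS and 912 of 1027 and 863 of 985 in WT LPS, and cluster 2 held 547 and 374 in KO LPS and 21 and 28 in WT LPS. In these cells Cxcl3 was 279.5-fold higher (229.5 to 343.9; fitted 8.09 ± 0.11). Cxcl1 was 132.7-fold higher (86.7 to 214.6; fitted 7.21 ± 0.15) and Cxcl2 38.3-fold (36.7 to 40.1; fitted 5.56 ± 0.08). The members therefore had different folds within the same macrophages, with Cxcl2, which had the most vehicle UMIs there (1953), having the lowest.

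In interstitial macrophages Cxcl3 was 255.8-fold higher (124 to 637), Cxcl1 72.0-fold (50.04 to 107.8) and Cxcl2 19.2-fold (18.1 to 20.4). In endothelial cells Cxcl2 was 447-fold higher (217 to 1112, on 7 vehicle UMIs) and Cxcl1 53.3-fold (33.6 to 90.0). Cxcl3 had no vehicle UMI there and was at least 63.7-fold higher, taking 3 counts over both vehicle libraries as the floor. This endothelial Cxcl3 averaged 18.49 CPM in KO LPS, below the 22.15 CPM of B cells, which are taken as background. In WT LPS it averaged 73.08 ± 74.58 CPM, against 23.96 CPM in B cells. Of the 398 endothelial Cxcl3 UMIs in WT LPS library 1, 133 came from 1 cell. In stromal cells Cxcl2 was 28.4-fold higher (20.7 to 40.1). Stromal Cxcl2 averaged 913.6 ± 337.3 CPM in WT LPS, against a background of 496.5 ± 84.55 CPM in B cells. In KO LPS these means were 1243 ± 407.5 and 236.1 ± 23.19 CPM. Cxcl1 had 2 vehicle UMIs in stromal cells, giving a ratio of 219.5 (60.7 to 1814), and Cxcl5 was at least 11.1-fold higher. Monocytes had Cxcl2 rises of 13.8-fold in classical (12.4 to 15.5) and 18.9-fold in nonclassical cells (17.1 to 20.9). Vehicle and LPS cells of these classes lay mostly in separate clusters, 16 against 5 and 17 in classical monocytes, 43 to 45 against 23 in nonclassical monocytes and 28 against 13, 35 and 38 in endothelial cells. For dendritic cells the Cxcl1 ratio was 4.59 (2.78 to 8.14), while Cxcl2 was 56.2-fold higher (42.6 to 75.8). That Cxcl1 ratio rests on 16 vehicle UMIs of the KO library and 0 of the WT library. The fitted log2 changes in dendritic cells were 5.43 for Cxcl1 and 6.35 for Cxcl2. The folds share the 2 vehicle libraries, and their order between classes was not tested.

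KO libraries were mostly the lower ones under LPS. Of the 34 tested pairs, 16 were lower and 1 was higher in KO than in WT libraries (edgeR, adjusted p under 0.05). Over all genes and classes 10.4% were called lower and 8.7% higher. The lower calls were 8 for Cxcl2, 4 for Cxcl3, 3 for Cxcl1 and 1 for Cxcl5. Plain totals gave 13 lower and 2 higher pairs. They shift the all-gene median up by 0.34 in neutrophils, 0.09 in alveolar macrophages and 0.05 to 0.20 in the other classes, and make 87.0% in place of 43.3% of neutrophil calls rises. The plot of KO against WT shows both scalings.

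**Figure D3:**
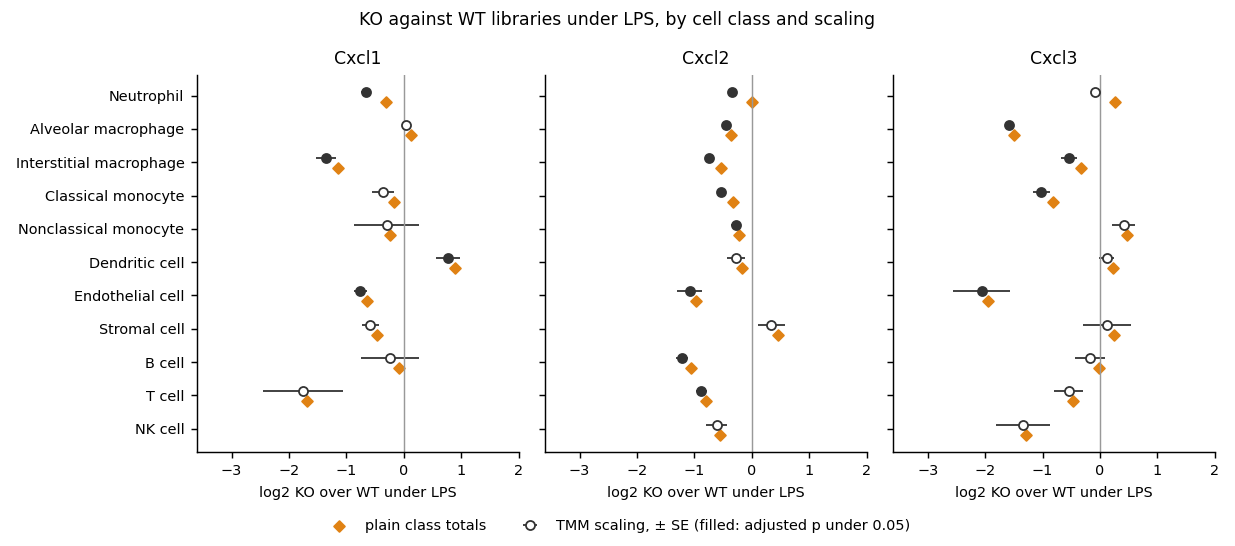
Log2 of KO over WT under LPS for Cxcl1, Cxcl2 and Cxcl3 in each tested class, with black circles for the fit with TMM scaling (± SE, filled where adjusted p is under 0.05) and orange diamonds for plain class totals. Cxcl3 in alveolar macrophages lies at -1.58 and -1.50, while neutrophil Cxcl2 lies at -0.34 with TMM and 0.00 with plain totals.

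The smallest adjusted p among the members belonged to Cxcl3 in alveolar macrophages, which averaged 464.7 ± 30.7 CPM in KO LPS and 1312 ± 132.7 CPM in WT LPS (SD, n = 2 libraries each). The fitted log2 change was -1.58 ± 0.07 (adjusted p = 5.11e-12, edgeR) and -1.50 with plain totals. Cxcl2 in the same cells averaged 2120 ± 12.9 CPM in KO LPS and 2740 ± 289.8 CPM in WT LPS (log2 -0.46 ± 0.07, adjusted p = 3.08e-05; plain -0.37). Cxcl1 did not pass the test there, at 94.6 ± 2.14 CPM in KO LPS and 86.5 ± 11.7 CPM in WT LPS (log2 0.03 ± 0.07, adjusted p = 0.75, edgeR). Interstitial macrophages had lower Cxcl1 in KO LPS, 262.3 ± 81.3 CPM against 575.8 ± 106.3 CPM in WT LPS (log2 -1.36 ± 0.17, adjusted p = 5.44e-05, edgeR). Their Cxcl2 was lower too, at -0.74 ± 0.09 (plain -0.53). Their Cxcl3 fell by 0.54 ± 0.14 with TMM scaling (adjusted p = 0.018, edgeR) but missed the threshold with plain totals (-0.33, adjusted p = 0.134), with DESeq2 (-0.58, adjusted p = 0.0818) and without WT LPS replicate 2 (-0.35, adjusted p = 0.259). Cxcl5 was called lower there (log2 -4.35 ± 0.73), where 211 UMIs came from 1 cell of WT LPS library 2. The value was -2.73 without this library and -10.4 without KO LPS replicate 1, both still called, and lost the call with cells named 1 by 1 (-2.04, edgeR adjusted p = 0.276).

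Among the other classes, classical monocytes had lower Cxcl2 (-0.54 ± 0.07, plain -0.33) and Cxcl3 (-1.02 ± 0.16, plain -0.81) in KO LPS libraries, with edgeR adjusted p of 2.53e-05 and 1.14e-04. DESeq2 gave an adjusted p of 0.0521 for that Cxcl3 value, and with Xist-marked cells it was at 0.0101 (edgeR adjusted p = 0.987), while Cxcl2 was at -0.35 (adjusted p = 0.00468). Cluster 17 held 544 and 409 of the classical monocytes in KO LPS and 62 and 96 in WT LPS, with 85.2% and 84.8% of the Y-only KO LPS cells and 8.61% and 8.81% of the Xist-only ones. Endothelial Cxcl1 averaged 174.7 ± 31.6 CPM in KO LPS and 273.9 ± 1.46 CPM in WT LPS (n = 2 each; log2 -0.76 ± 0.11, edgeR adjusted p = 1.42e-04). Endothelial Cxcl2 and Cxcl3 were called lower, at -1.08 ± 0.22 and -2.06 ± 0.49. Both calls rest on WT LPS library 1, and without it the values were -0.56 (adjusted p = 0.199) and -0.22 (adjusted p = 0.712, edgeR). Stromal Cxcl1 missed the threshold (-0.59 ± 0.15, edgeR adjusted p = 0.0572) and passed it without KO LPS replicate 1 (-0.84, adjusted p = 0.00438) or with the replicate block (-0.61, adjusted p = 0.0318). Nonclassical monocyte Cxcl2 (-0.28 ± 0.08, adjusted p = 0.0273, edgeR) lost its call with plain totals (adjusted p = 0.095), with DESeq2 (0.116), without WT LPS replicate 2 (0.20) and without KO LPS replicate 2 (0.338), and stood at 0.29 with Xist-marked cells (adjusted p = 0.136). The only higher call was Cxcl1 in dendritic cells (0.77 ± 0.21, adjusted p = 0.0319, edgeR), where 63 of the 120 UMIs of KO LPS library 1 came from 1 cell. Without that library the value was 0.43 (adjusted p = 0.449), and without WT LPS replicate 2 it was 0.67 (adjusted p = 0.101). Cxcl2 was called lower in B cells (-1.22 ± 0.10) and T cells (-0.88 ± 0.09), where it stood at the background level. With B cell UMIs subtracted from the other classes, Cxcl2 was at -0.42 in classical monocytes (edgeR adjusted p = 9.06e-04), -0.90 in endothelial cells (adjusted p = 0.0225) and -0.10 in nonclassical monocytes (adjusted p = 0.607).

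In neutrophils the results for Cxcl2 and Cxcl3 depended on the scaling, while Cxcl1 was called lower with both. Cxcl2 averaged 17120 ± 136.5 CPM in KO LPS and 17060 ± 231.9 CPM in WT LPS (SD, n = 2 each), a log2 change of 0.00 with plain totals (edgeR adjusted p = 0.93) and of -0.34 ± 0.05 after TMM scaling (adjusted p = 3.47e-05). Cxcl3 was higher in KO with plain totals (0.25, adjusted p = 0.00159, edgeR) and at -0.09 ± 0.06 after TMM scaling (adjusted p = 0.258), which became a call of -0.18 (adjusted p = 5.38e-05) without KO LPS replicate 1. Cxcl1 was lower in KO under both, -0.65 ± 0.08 with TMM scaling (adjusted p = 2.53e-06, edgeR) and -0.31 with plain totals (adjusted p = 0.00548).

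Within the KO LPS libraries, cells with Xist and cells with Y-linked transcripts differed more in some classes than KO and WT did. Among KO LPS alveolar macrophages, 488 and 450 cells had Xist alone and 501 and 299 had Y-linked transcripts alone. Cxcl3 stood at 988 and 783 CPM in the Xist-only cells and 12.5 and 13.6 CPM in the Y-only cells of the same libraries, against 1394 and 1222 CPM in Xist-only cells of WT LPS. Vehicle alveolar macrophages had 2.34 CPM in KO and 4.27 CPM in WT, so the Y-only cells lay nearer to these than to the Xist-only cells of their own libraries. Cxcl2 followed the same order within KO LPS, with 3642 and 3311 CPM in Xist-only and 703 and 613 CPM in Y-only cells, and the WT LPS Xist-only cells had 2926 and 2547 CPM. Cxcl1 had 174.5 and 152.2 CPM in Xist-only and 24.96 and 17.4 CPM in Y-only cells of KO LPS, against 94.2 and 78.8 CPM in WT LPS. Of the Y-only KO LPS alveolar macrophages 83.8% and 87.0% lay in cluster 2, the cluster of vehicle cells, and of the Xist-only ones 89.6% and 89.3% lay in cluster 7.

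**Figure D4:**
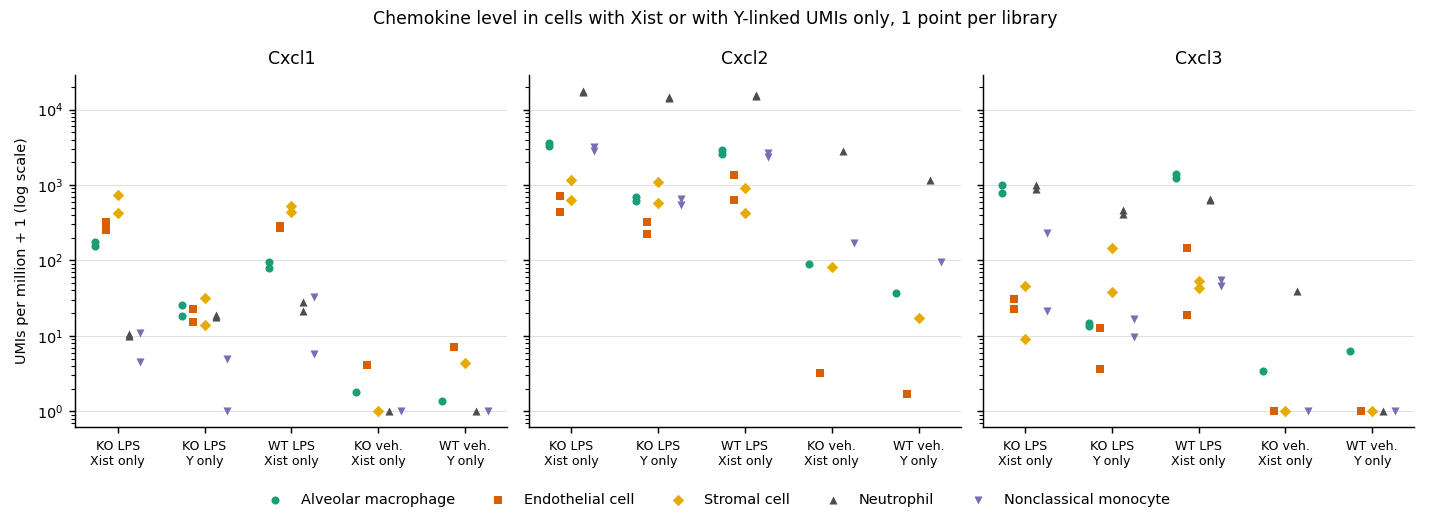
Level of Cxcl1, Cxcl2 and Cxcl3 as CPM of the marked cells plus 1 (log axis), 1 point per library, in cells with Xist alone or Y-linked transcripts alone, for 5 classes named in the legend. Alveolar macrophage Cxcl3 in Y-only KO LPS cells lies at 12.5 and 13.6, far below the Xist-only KO LPS cells at 988 and 783.

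Outside the macrophages, Xist-only cells of KO LPS libraries were also the higher ones for Cxcl1 in endothelial and stromal cells and for Cxcl2 in nonclassical monocytes. Endothelial Cxcl1 was 320 and 252 CPM in Xist-only and 14.4 and 21.9 CPM in Y-only KO LPS cells, against 286 and 267 CPM in Xist-only WT LPS cells. Stromal Cxcl1 was 730 and 421 CPM in Xist-only and 13.1 and 31.0 CPM in Y-only KO LPS cells (31 to 74 cells each), against 436 and 522 CPM in Xist-only WT LPS cells. Stromal Cxcl2 did overlap between the marks, with 1159 and 634 CPM in Xist-only and 1082 and 577 CPM in Y-only KO LPS cells, against 428 and 919 CPM in WT LPS. Nonclassical monocytes had 2784 and 3161 CPM of Cxcl2 in Xist-only and 543 and 648 CPM in Y-only KO LPS cells, against 2670 and 2335 CPM in WT LPS. Neutrophils differed less, with 16860 and 17880 CPM of Cxcl2 in Xist-only and 14260 and 14550 CPM in Y-only KO LPS cells. Xist-only WT LPS neutrophils had 15540 and 15100 CPM, below the mean of 17060 CPM over all WT LPS neutrophils. Most neutrophils carried neither mark and are left out of the values by mark (64.94% and 69.38% in KO LPS, 74.65% and 79.53% in WT LPS). Neutrophil Cxcl3 was 987 and 871 CPM in Xist-only and 415 and 466 CPM in Y-only KO LPS cells, against 647 and 631 CPM in WT LPS. Neutrophil Cxcl1 was the exception among these values, with 9.52 and 8.92 CPM in Xist-only and 17.8 and 16.9 CPM in Y-only KO LPS cells, against 27.3 and 20.6 CPM in WT LPS.

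With Xist-marked cells the fit called 6 of 33 pairs lower and 3 higher in KO, against 16 and 1 of 34 with all cells, while Y-marked KO LPS cells gave 27 lower and none higher. These alternatives were chosen after the marks had been seen. The counts are given without the share of all genes called in the same fits, so they show nothing particular to the members. For alveolar macrophages the Xist-marked fit gave -0.53 for Cxcl3 (edgeR adjusted p = 4.46e-04), 0.38 for Cxcl2 (adjusted p = 0.00107) and 0.95 for Cxcl1 (adjusted p = 9.34e-07), against -1.58, -0.46 and 0.03 with all cells. Endothelial Cxcl1 moved to 0.12 (adjusted p = 0.624) and stromal Cxcl1 to 0.30 (adjusted p = 0.569, edgeR). Interstitial macrophage Cxcl2 kept its direction and its call at -0.72 (adjusted p = 0.0428), and Cxcl1 stood at -0.91 (adjusted p = 0.108, edgeR). With Y-marked KO LPS cells alveolar macrophage Cxcl3 was at -6.86 and endothelial Cxcl1 at -4.36.

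The vehicle libraries, 1 per genotype, differed in Cxcl2 without any LPS. Over all cells KO vehicle had 131.4 CPM (5577 UMIs) and WT vehicle 51.2 CPM (1877 UMIs), a ratio of 2.57 (95% counting interval 2.44 to 2.71). The ratio was 2.96 in neutrophils (2.73 to 3.22), 2.44 in alveolar macrophages (2.20 to 2.70), 1.63 in interstitial macrophages (1.44 to 1.85) and 3.77 in classical monocytes (2.79 to 5.17). In 8 of 11 classes the interval lay above 1. Cxcl3 went different ways, with 5.21-fold higher neutrophil levels in KO vehicle (1.53 to 27.5, on 19 UMIs in KO and 3 in WT) and 0.548 of the WT vehicle level in alveolar macrophages (0.356 to 0.836). These intervals cover counting error only, and with 1 library a side there is no test. The KO vehicle library is the Xist-marked and the WT vehicle library the Y-marked one, so genotype and sex cannot be told apart.

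The ratio of LPS to vehicle levels of Cxcl2 was smaller in KO than in WT libraries. The KO neutrophil level was 6.47-fold that of KO vehicle (6.23 to 6.73), and the WT level 19.2-fold that of WT vehicle (17.8 to 20.7). For alveolar macrophages the folds were 24.0 in KO (22.8 to 25.3) and 76.5 in WT (70.1 to 83.5). The fitted difference in response called 7 of 34 pairs lower in KO, all of them Cxcl2, and none higher. Over all genes and classes 3.37% were called lower and 2.87% higher. The spread in this fit came from the LPS libraries alone. In neutrophils, whose Cxcl2 averaged 17120 CPM in KO LPS and 17060 CPM in WT LPS, the difference in CPM lay between the 2 single vehicle libraries.

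Cell by cell, Cxcl2 was found in nearly all LPS neutrophils. With every cell thinned to 2000 UMIs and shallower cells left out, 98.8% and 98.8% of neutrophils in KO LPS and 99.4% and 99.3% in WT LPS had a Cxcl2 UMI, against 65.1% in KO vehicle and 38.1% in WT vehicle. The neutrophil left-out cells numbered 148 and 270 in KO LPS, 147 and 218 in WT LPS, 147 of 436 in KO vehicle and 493 of 535 in WT vehicle. The thinned WT vehicle share thus rests on few cells, the deepest of the class. Without thinning these Neutrophil shares were 99.3% and 99.0% in KO LPS, 99.8% and 99.6% in WT LPS, 64.2% in KO vehicle and 33.8% in WT vehicle. The B cell share of the same gene, taken as background, was 25.2% and 15.03% in KO LPS and 32.2% and 29.3% in WT LPS. Before thinning, median depths under LPS were 3773 to 5457 UMIs in neutrophils (Neutrophil) and 2730 to 4416 in B cells (B cell). The 10% of neutrophils with the most Cxcl2 held 30.5% and 31.3% of it in KO LPS and 29.96% and 29.2% in WT LPS, and the median neutrophil had 79 and 58 UMIs in KO LPS and 91 and 66 in WT LPS.

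Cxcl3 in alveolar macrophages was carried by fewer cells. The thinned share of alveolar macrophages (Alveolar macrophage) with a Cxcl3 UMI was 20.0% and 21.2% in KO LPS and 50.6% and 46.4% in WT LPS, against 0.407% in KO vehicle and 0.492% in WT vehicle. Unthinned it was 32.5% and 30.7% in KO LPS and 72.4% and 65.4% in WT LPS. B cell shares of Cxcl3 were 3.60% and 2.00% in KO LPS and 4.76% and 3.92% in WT LPS. The 10% of alveolar macrophages with the most Cxcl3 held 84.9% and 81.4% of its UMIs in KO LPS and 57.4% and 56.6% in WT LPS, so the KO LPS molecules were concentrated in fewer cells. Cxcl3 was found more often in alveolar macrophages that also had a Cxcl1 UMI, in 42.9% and 44.1% of these against 17.9% and 18.5% of the cells without Cxcl1 in KO LPS. In WT LPS it was found in 68.6% and 65.0% of cells with Cxcl1, against 48.5% and 44.3% of cells without. Stromal cells (Stromal cell) had a Cxcl1 UMI in 34.9% and 31.8% of thinned cells in KO LPS and 55.9% and 54.4% in WT LPS, against B cell shares of 0.899% and 0.334% in KO LPS and 1.07% and 0.453% in WT LPS. None of these shares was divided by sex mark. KO LPS libraries mix Xist-only cells with Y-only cells, which had lower Cxcl3 and Cxcl1 in alveolar macrophages and lower Cxcl1 in stromal cells. What this mixture adds to the KO LPS shares was not tested.

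Neutrophil clusters differed in Cxcl2 by more than the libraries did. Clusters 0 and 6 had 26148, 26220, 25134 and 26199 CPM in the KO LPS libraries and 22583, 21868, 21403 and 21248 CPM in the WT LPS libraries. Cluster 21, the immature granule-rich cells, had 6663 and 6418 CPM in KO LPS and 7002 and 6584 CPM in WT LPS. Cxcl3 in cluster 0 was 1744 and 1306 CPM in KO LPS and 830 and 781 CPM in WT LPS. Among alveolar macrophages, Cxcl3 in cluster 7 was 953 and 774 CPM in KO LPS and 1496 and 1324 CPM in WT LPS. The KO LPS cells in cluster 2 had 7.32 and 7.94 CPM, and the cycling cells of cluster 31 had 196 and 294 CPM in KO LPS and 789 and 582.4 CPM in WT LPS. Stromal cells of cluster 32, which carried smooth muscle genes, had 1185 and 865 CPM of Cxcl1 in KO LPS and 1535 CPM in WT LPS library 1. Those of cluster 29 had 356 and 265 CPM in KO LPS and 438 and 399 CPM in WT LPS. Endothelial cluster 35, found in KO LPS libraries alone, had 7.54 and 19.1 CPM of Cxcl1, against 208 and 187 CPM in KO LPS and 182 and 224 CPM in WT LPS in cluster 13. Cluster 35 held 77.8% and 82.6% of the Y-only KO LPS endothelial cells, and cluster 13 held 89.7% and 88.7% of the Xist-only ones. The members were left out of the genes used for clustering, but genes that move with them were not.

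The pathways around the ligands were followed in neutrophils and alveolar macrophages with 5 lists. Of 27 genes of LPS sensing and NF-kB, 21 rose and 1 fell under LPS in neutrophils, with a median log2 change of 2.73 beside 0.34 for all genes. Plain totals gave 17 rises and 5 falls. In neutrophils 31.5% of all genes were called higher and 21.7% lower, while plain totals called 1121 of all 11671 genes higher and 6230 lower. The LPS co-receptor Cd14 rose by 5.28 on the log2 scale, with 2796 and 2746 CPM in KO LPS and 3027 and 3069 CPM in WT LPS, against 359.7 CPM in KO vehicle and 134.5 CPM in WT vehicle. The NF-kB inhibitor Nfkbia rose by 4.32, the kinase inhibitor Irak3 by 4.91 and the ubiquitin-editing enzyme Tnfaip3 (A20) by 3.93. Of 26 such genes tested in alveolar macrophages, 20 rose and 4 fell (median 0.81; all genes -0.02; plain totals 18 and 5), where 29.1% of all genes were called higher and 28.6% lower. Tnfaip3, Nfkbia and the IkB family members Nfkbiz and Bcl3 rose there by 3.66, 3.54, 4.00 and 3.38.

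Inducers of the ligands rose in both classes. All 7 tested in alveolar macrophages were higher under LPS (median 5.10), among them the cytokines Il1b (5.10), Tnf (4.21), Il1a (4.18) and Il6 (5.62). In neutrophils 6 of 8 were higher and none lower (median 4.90; 4 higher with plain totals), Il1a by 7.38 and Tnf by 4.43, while Il1b rose by 1.80 with TMM scaling and 0.24 with plain totals. Genes of mRNA decay rose in 9 of 15 and fell in none in alveolar macrophages (median 0.26), led by Zc3h12a (2.87) and Zfp36 (1.47), and plain totals gave 7 rises and 2 falls. In neutrophils 10 of 16 decay genes were higher and 3 lower (median 1.20). Plain totals gave 5 and 8, beside 1121 higher and 6230 lower of all 11671 genes. Zc3h12a was higher with either scaling, at 3.11 and 1.55 with plain totals, and Zfp36l2 lower, at -2.39 and -3.94. Zfp36 was at 1.41 with TMM scaling and -0.14 with plain totals.

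On the receptor side, neutrophil Cxcr2 had 1132 and 1205 CPM in KO LPS and 1015 and 1003 CPM in WT LPS, against 1744 CPM in KO vehicle and 1838 CPM in WT vehicle. Its share of the neutrophil UMIs was lower in every LPS library (plain log2 -0.72), yet its fitted change with TMM scaling was 0.84. Cxcr4, which retains neutrophils in bone marrow, was lower under both, with 41.4 and 34.0 CPM in KO LPS and 24.9 and 26.3 CPM in WT LPS, against 614 CPM in KO vehicle and 530.5 CPM in WT vehicle (-2.63; plain -4.19). Cxcr1, the chemokine receptor most like Cxcr2, was lower too (-2.53; plain -4.09). The list of ligands and receptors other than the members holds Cxcr1, Cxcr2 and Cxcr4 too. Of its 6 genes tested, neutrophils had 2 higher and 2 lower (plain totals 0 and 3) and alveolar macrophages 4 higher and 2 lower. Of the genes of Cxcr2 signalling and desensitisation, 10 of 23 were higher and 11 lower in neutrophils (plain totals 2 and 18), and 9 of 22 were higher and 9 lower in alveolar macrophages (plain totals 5 and 13). With plain totals 15.3% of all calls in neutrophils and 32.2% in alveolar macrophages were rises. The G protein regulator Rgs2 was lower in neutrophils by either scaling (-2.87; plain -4.42).

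Between genotypes under LPS, 15 of 26 NF-kB genes were lower and 1 higher in KO alveolar macrophages (median -0.44), where 19% of all genes were called lower and 15.6% higher. Plain totals gave 14 lower and 2 higher, beside 1556 lower and 2856 higher of all 12621 genes. Bcl3 had 37.0 and 40.0 CPM in KO LPS and 87.3 and 80.5 CPM in WT LPS (log2 -1.23), and Nfkb2, Relb and Nfkbie stood at -0.91, -0.89 and -0.91. Of 7 inducers 5 were lower (median -0.60; 3 with plain totals), with Il1b at 535.5 and 507.5 CPM in KO LPS and 928 and 858 CPM in WT LPS (-0.86). Of 15 decay genes 2 were higher and 3 lower (plain totals 3 and 2). In KO neutrophils 16 of 27 NF-kB genes were lower and 4 higher (median -0.36), where 16.8% of all genes were called lower and 12.8% higher. Plain totals gave 8 and 8, beside 700 lower and 4673 higher of all 11671 neutrophil genes. Tnfaip3 (-0.76; plain -0.41) and Nfkbia (-0.77; plain -0.43) were lower by either scaling, as was Zc3h12a (-0.94; plain -0.59) among 6 lower and 4 higher decay genes (plain 3 lower and 9 higher). Of 8 inducers 5 were lower and none higher in KO neutrophils, Csf3 at -1.16, and plain totals gave 3 lower and 1 higher. Among genes of Cxcr2 signalling 14 of 23 were higher and 5 lower (plain totals 19 and 3), and the receptor kinase Grk6 was at 1.13 (plain 1.47). The division by Xist and Y-linked marks was not made for these genes.

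Across the 66 sums of 11 classes and 6 libraries, the genes whose log2 levels were most like a member's among 7240 genes were sought by Pearson's r. These points share libraries, treatment and cell type, so r is a description. For Cxcl1 they were the metallothionein Mt2 (0.888), the sphingosine kinase Sphk1 (0.860) and the cholesterol hydroxylase Ch25h (0.851). For Cxcl2 they were Lilr4b (0.939), the activating receptor Trem1 (0.931), which is also a neutrophil marker used for naming, and Il1b (0.919). Cxcl3 was most like Cxcl2 (0.893), Il1a (0.879) and Zc3h12a (0.875). Cxcl5 was most like the acute-phase gene Saa1 (0.772), the chemokine Cxcl13 (0.760) and Gfpt2 (0.732). Among themselves, Cxcl1 had an r of 0.600 with Cxcl2 and 0.697 with Cxcl3.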

How the data were processed

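The authors deposited, per the file headers, 1 filtered gene by barcode matrix of raw UMI counts for each of 6 lung libraries. Per the submitters' processing notes, the counts came from Cell Ranger 6.1.0 with mm10, and Seurat 4.1.0 and R 4.1.3 were used. No source used here gives the annotation release. The members and gene lists were chosen with earlier results of these data known.

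Of 64428 barcodes, 61736 had at least 200 genes and at most 10% mitochondrial UMIs. Scrublet's automatic threshold called 0 cells in 4 libraries, 766 in 1 and 1923 in another. The highest-scoring cells were therefore removed at a rate of 0.8% per 1000 barcodes (6.94% to 9.89%), leaving 56341. Cells were clustered in scanpy 1.11.5 on 1732 variable genes without the members and the gene lists other than class markers (30 components, 20 neighbours, leidenalg 0.10.2 at resolution 1.5), giving 43 clusters. Of these, 3 with low doublet scores and a next marker list scoring at least 0.75 of the best were divided once more on the marker genes (resolution 0.3), giving 52. Cluster names follow the class whose markers had the highest mean log2 fold (at least 0.75, with 3 markers in 10% of cells). Clusters with a median doublet score of at least 0.14 and a next list scoring at least 0.5 of the best were called mixed (3403 cells), thresholds set after the clusters were seen, and 1035 cells had no name. Naming cells 1 by 1 by marker score gave the same class for 91.48% of cells.

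UMIs were summed per library and class. edgeR 4.0.16 in R 4.3.3 (quasi-likelihood test; TMM scaling; low counts filtered by group; a coefficient for each group; 2 residual degrees of freedom) tested LPS against vehicle over both genotypes, KO against WT under LPS, and the difference between these responses, with Benjamini-Hochberg adjustment over all genes of a class. The scripts were tested on simulated data. Vehicle libraries, 1 per genotype, are compared as values. Intervals are exact at 95%, and floors are 3 counts. Alternatives were DESeq2 1.42.0, plain totals, no filter, a replicate block, leaving out each LPS library, naming cells 1 by 1, doublets kept, B cell UMIs subtracted, at most 5% mitochondrial UMIs, and, chosen after seeing the data, cells by sex marks (the WT vehicle library, which has almost no Xist, kept all its cells). The same replicate numbers appear in both LPS groups, but deviations correlated at -0.04 to 0.08 over genes, and the labels tie no number to an animal or day.

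Named genes were the members, up to 4 genes per list, class and comparison with the smallest p past the threshold, 3 genes most like each member (at least 50 CPM in a sum), and neighbours on the chromosome. Not every gene the rule takes is described. Positions and 3′ regions came from GENCODE M21 and promoters from RefSeq.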

Additional observations from a re-analysis of the deposited data

Results flagged for a closer look

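Cxcl2 passed the test of a genotype difference in the LPS response in 7 of the 11 classes (edgeR, adjusted p under 0.05), with a spread that came from the LPS libraries alone. On the log2 scale, KO response minus WT response was -2.04 ± 0.11 in neutrophils, -1.70 ± 0.14 in alveolar macrophages, -1.44 ± 0.16 in interstitial macrophages, -2.44 ± 0.24 in classical monocytes and -1.22 ± 0.18 in nonclassical monocytes. It was -2.94 ± 0.55 in B cells and -3.17 ± 0.28 in T cells, where Cxcl2 stood at the background level. Each value rests on 1 vehicle library per genotype, assumed to vary like the LPS libraries. In neutrophils, with 17120 CPM in KO LPS and 17060 CPM in WT LPS, the CPM differed between these 2 vehicle libraries (2640 in KO vehicle and 891 in WT vehicle). The KO vehicle library, the Xist-marked one, had 2.57 times the Cxcl2 CPM of the WT vehicle library, the Y-marked one, over all cells. Genotype, sex and library cannot be told apart there. With Xist-marked cells of the other libraries and all cells of the WT vehicle library, 5 of 33 pairs were called, all lower. This count is given without the share of all genes called in the same fit, so it shows nothing particular to the members.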

How the results depend on the processing

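The number of pairs called higher under LPS, which the low-count filter fixes in part, was 34 of 34. It was 28 of 29 with B cell UMIs subtracted, 31 of 34 with Y-marked cells of the KO LPS libraries, 35 of 37 with doublets kept and 33 to 34 of 34 when leaving out 1 LPS library. The count of KO against WT calls under LPS (17) was 11 with DESeq2 (all lower), 9 with Xist-marked cells, 27 with Y-marked cells and 15 to 21 when leaving out 1 LPS library. The count of differences in response (7) was 14 with Y-marked cells and 8 to 11 when leaving out 1 LPS library, 11 without KO LPS replicate 1. The replicate block gave 34, 20 and 7 calls for these comparisons, and the numbers do not pair the samples by the check of their deviations. The counts under all these alternatives are given without the share over all genes in the same fit.

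These log2 values of KO against WT under LPS changed sign, whether called or not. With plain totals, neutrophil Cxcl2 stood at 0.0046 and neutrophil Cxcl3 at 0.25. With Xist-marked cells, Cxcl1 was at 0.58 in classical monocytes, 0.12 in endothelial, 0.30 in stromal and 0.14 in B cells. With them Cxcl2 was at 0.38 in alveolar macrophages and 0.29 in nonclassical monocytes, and Cxcl3 at 0.29 in neutrophils, 0.0101 in classical monocytes, -0.64 in stromal, 0.20 in B and 0.60 in T cells. With Y-marked cells, Cxcl1 was at -2.14 in alveolar macrophages and -8.11 in dendritic cells, Cxcl2 at -0.46 in stromal cells, and Cxcl3 at -2.39 in nonclassical monocytes and -3.45 in dendritic cells. With cells named 1 by 1, Cxcl3 was at -0.29 in dendritic and -0.31 in stromal cells and Cxcl1 at 0.56 in B cells. With doublets kept, Cxcl1 was at -0.10 in alveolar macrophages and 0.65 in nonclassical monocytes, Cxcl2 at 0.15 in T cells, and Cxcl3 at -0.22 in dendritic and 0.11 in B cells. With at most 5% mitochondrial UMIs, Cxcl1 was at 0.13 in nonclassical monocytes and 0.066 in B cells and Cxcl3 at 0.14 in B cells. The replicate block put stromal Cxcl3 at -0.021. With B cell UMIs subtracted, Cxcl2 was at 0.48 in T cells and 11.14 in NK cells.

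Leaving out 1 LPS library gave ranges that cross 0 for Cxcl1 in alveolar macrophages (-0.096 to 0.20), nonclassical monocytes (-1.90 to 1.72) and B cells (-0.49 to 0.028). The same holds for Cxcl2 in dendritic (-0.52 to 0.036) and stromal cells (-0.034 to 0.79), and for Cxcl3 in neutrophils (-0.18 to 0.022), stromal (-0.998 to 0.66), B (-1.21 to 0.27) and T cells (-1.21 to 0.087). The difference in response changed sign with Xist-marked cells for alveolar macrophage Cxcl1 (0.47) and Cxcl3 (0.36), with at most 5% mitochondrial UMIs for dendritic cell Cxcl2 (0.098), and for endothelial Cxcl1 with doublets kept (-0.59) and with Y-marked cells (-3.37). The cause was not tested.

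In all, 358 of 460 KO against WT values kept direction and side of the threshold, 277 of 279 for LPS against vehicle and 168 of 181 for the difference in response. The 2 libraries per LPS group and 1 per vehicle group limit what can be called, as do 29 to 65 epithelial cells and a few vehicle UMIs of Cxcl1, Cxcl3 and Cxcl5.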
